A study of Saccharomyces cerevisiae with 24 samples.

Results

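The subject is the first 20 min after galactose was added to YSS89, a Saccharomyces cerevisiae strain in which IFH1 stands under the GAL1 upstream activating sequence. The arrays were chosen by their labels: 3 arrays of YSS89 at 20 min and 3 of YSS89 at time 0, 6 of the 24 Affymetrix YG_S98 arrays in the series, and all genes were described on them. Both groups are the same MATa strain, with the genotype UASGAL1-IFH1-13myc-TRP1 and the HIS3 marker placed with the promoter change, so the 13myc tag and the TRP1 marker were present at 20 min and at time 0 alike. The control strain YSS37 carries the tagged gene IFH1-13myc-TRP1 with its own promoter. Cultures were in log phase at 30°C in YPLG medium when galactose was added, and the time 0 arrays are the cultures before galactose. The labels give the times without a unit, and minutes are assumed. They call the 3 arrays of a group biological replicates, which leaves unsaid whether these were separate cultures of 1 clone. No YSS89 culture was sampled at 20 min without galactose, and YSS37 has no array at 20 min. A change in YSS89 at 20 min therefore holds the effects of galactose, of time and of IFH1, which cannot be told apart.

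In yeast, galactose binds the sensor Gal3, Gal3 holds the repressor Gal80 away from the activator Gal4, and Gal4 then switches on the genes of galactose uptake and breakdown through upstream activating sequences such as that of GAL1. Ifh1 is a coactivator that is recruited to the promoters of ribosomal protein (RP) genes by the forkhead protein Fhl1, with Rap1 bound nearby, and it is known as a point where nutrient signals reach ribosome production. Cells that grow on lactate and glycerol rely on respiration and gluconeogenesis, and genes of both are known to be repressed by fermentable sugars.

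Of 5656 genes tested with limma, 430 were called higher at 20 min than at time 0 (7.6%) and 586 lower (10.4%), at an adjusted p under 0.05 over all genes. The called changes reached 2-fold for 87 higher and 105 lower genes, and 8-fold for 6 higher and 0 lower genes. On 33.2% of genes the groups did not overlap, with all arrays at 20 min above those at time 0 for 868 genes and below for 1008. The median change of all genes was -0.01 on the log2 scale on which every change below is given, with a median standard error (SE) of 0.17.

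Technical differences go with these groups and touch every result below. The first array at time 0 and 2 of the arrays at 20 min were hybridized in the second of 4 rounds and replicate 3 at 20 min in the third, whereas replicates 2 and 3 at time 0 made up the fourth round by themselves. Chip lots differed too: replicate 2 at 20 min shared its lot with replicate 1 at time 0, and replicates 1 and 3 at 20 min were of another lot. For replicates 2 and 3 at time 0 no lot is recorded. Within the second round, 2 arrays at 20 min against 1 at time 0, the fit called 86 genes higher and 86 lower. With replicates 2 and 3 at time 0 left out 327 genes were called, of which 267 were also called in the same direction with all arrays, and 1008 of the 1016 genes called with all arrays had the same direction. Of the 98 called genes named here 59 were also called without these replicates, and all but PGM2, TDH1 and SNR61 kept their direction. The ratio of 3' to 5' signal of ACT1, a sign of RNA integrity and labelling, was 1.52, 1.54 and 1.58 at 20 min and 1.38, 1.22 and 1.20 at time 0. The median deposited signal of the control probe sets for 18S rRNA was 36.3, 62.2 and 33.1 at 20 min and 23.2, 5.4 and 5.4 at time 0. The part of the round, the chip lot, the 3' to 5' ratio and the rRNA signal in the results was not tested beyond the values given.

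The 7 largest changes upward of all genes were those of GAL10, GAL2, GAL7, GAL1, IFH1, FUR4 and GAL3. IFH1 had a normalized signal of 1321, 1239 and 1438 on the arrays at 20 min, against 21.4, 19.3 and 29.4 at time 0, so the groups were far apart. The change was 5.77 ± 0.17 (SE), or 54.5-fold, with an adjusted p of 4.16e-16. After 20, 30, 40 and 60 min its signal averaged 1332, 1176, 1015 and 599.2, with SDs of 100, 31.6, 33.5 and 20.1 over 3 arrays each, so the highest mean of the course was the first one after galactose. Between 20 and 60 min IFH1 fell by 1.15 (adjusted p 4.03e-05). In YSS37 at 30 min IFH1 was also called higher, by 0.58 (adjusted p 0.0132). Its mean signals in YSS37 were 23.6 at time 0, 35.1 at 30 min and 39.0 at 60 min. Both genes beside IFH1 in the RefSeq annotation (assembly R64), picked for their place after the values were seen, changed far less than IFH1. UTP13, which works in small subunit assembly, was called higher by 0.53 (adjusted p 0.00412), and UCC1 changed by -0.22 (adjusted p 0.401). In YSS37 at 30 min both were called higher, UTP13 by 1.11 and UCC1 by 0.85.

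**Figure D1:**
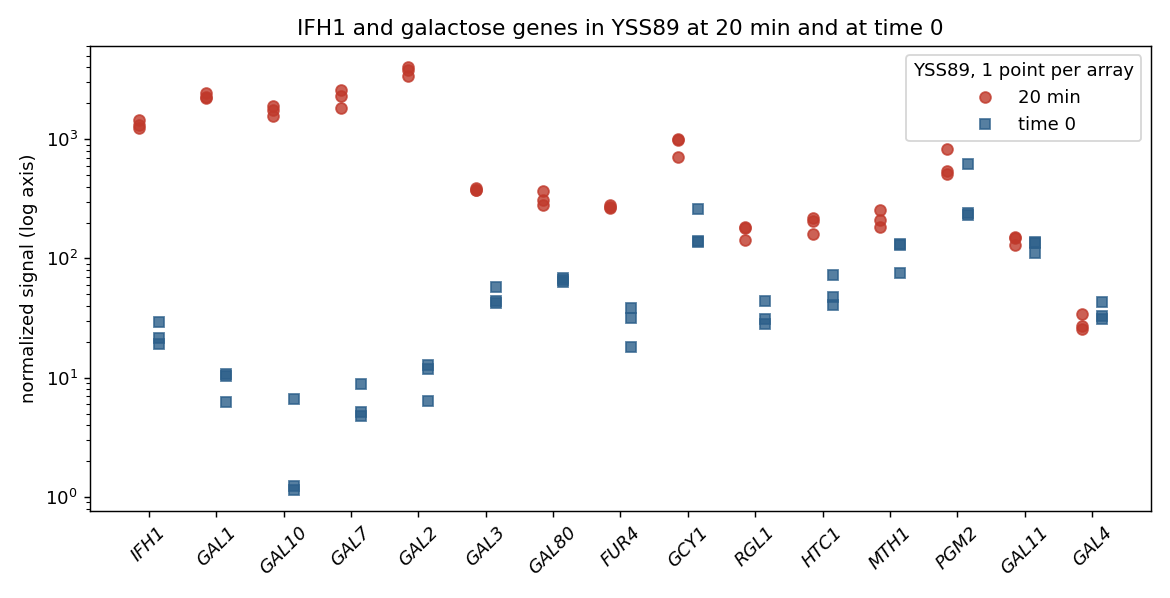
Normalized signal of IFH1, of members of the galactose lists and of HTC1 and RGL1 on each YSS89 array, on a log axis, with 20 min at the left and time 0 at the right of each gene. From IFH1 to MTH1 all 3 arrays at 20 min lie above all 3 at time 0, whereas PGM2, GAL11 and GAL4 overlap.

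Of the 9 measured genes of the galactose pathway 7 were called higher and 0 lower at 20 min. The galactokinase gene GAL1, whose upstream sequence drives IFH1 in this strain, had signals of 2259, 2192 and 2457 at 20 min, against 10.8, 10.4 and 6.28 at time 0. The epimerase gene GAL10 had 1556, 1896 and 1770 at 20 min, against 6.66, 1.24 and 1.15 at time 0. The lowest time 0 signals of GAL10 lie near the pseudocount of 1.4, which is added to all signals, and the sizes of the changes, 7.80 ± 0.17 for GAL1 and 8.84 ± 0.28 for GAL10, understate the ratio of the signals. The permease gene GAL2 changed by 8.36 and the transferase gene GAL7 by 8.21. The sensor gene GAL3 had 375.5, 392.4 and 372.2 at 20 min, against 44.0, 57.2 and 42.1 at time 0, a rise of 2.97, and between 20 and 60 min it fell by 1.32. The repressor gene GAL80 rose by 2.24 and was not called different between 60 and 20 min (-0.09, adjusted p 0.596). The activator gene GAL4 (-0.27, adjusted p 0.397) and the Mediator gene GAL11 (0.16, adjusted p 0.383) were not called. The phosphoglucomutase gene PGM2 had 505.9, 819.3 and 541 at 20 min, against 614.8, 240.5 and 231.7 at time 0. Its groups overlapped, and its called rise of 0.90 (adjusted p 0.0467) was -0.019 with replicates 2 and 3 at time 0 left out.

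Genes known as Gal4 targets outside the pathway split. The uracil permease gene FUR4, next to GAL1 on the chromosome, had 270.2, 265 and 281.4 at 20 min, against 38.5, 31.9 and 18.2 at time 0, a rise of 3.21 (9.23-fold). The reductase gene GCY1 rose by 2.37, and MTH1, which encodes a corepressor of hexose transporter genes, by 0.96. The protease gene YPS3 fell by 0.73 (adjusted p 0.0023), while the cyclin gene PCL10 (0.40, adjusted p 0.136) and the alcohol dehydrogenase gene ADH6 (-0.32, adjusted p 0.397) were not called. With replicates 2 and 3 at time 0 left out the change of YPS3 was -0.58, and it was then not called. In YSS37 at 30 min YPS3 was called higher, by 0.83, and so was PCL10, by 0.72. Of the 6 genes of this list 5 were called higher there and 0 lower. The times differ, and the difference between strains was not tested. RIO1, which encodes a kinase of small subunit assembly and lies beside GCY1, had 144.4, 148.1 and 170.4 at 20 min, against 57.9, 48.2 and 67.7 at time 0, a rise of 1.40 (adjusted p 9.47e-07). HTC1 and RGL1, which lie beside each other and not beside GCY1, rose by 1.87 and 2.27. In YSS37 at 30 min RIO1, HTC1 and RGL1 were also called higher, with changes of 2.01 for HTC1 and 1.85 for RGL1, so these rises were also present in the strain that has IFH1 under its own promoter.

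Among 14 regulators of RP genes, IFH1 aside, only the genes of DOT6 and HMO1 were called on the quantile normalized values. DOT6, a repressor of ribosome biogenesis genes, had 279.1, 370.2 and 331.5 at 20 min, against 214, 195.7 and 185.3 at time 0, a rise of 0.71 (adjusted p 0.000159) with groups that did not overlap. In YSS37 at 30 min the change of DOT6 was -0.07 (adjusted p 0.68). HMO1, which encodes a protein bound at RP and rRNA promoters, had 443.4, 521.1 and 451.9 at 20 min, against 417.7, 305.6 and 245.9 at time 0, a rise of 0.58 that was 0.18 (adjusted p 0.718) with replicates 2 and 3 at time 0 left out. The partners of Ifh1 at the promoter were not called: the change was 0.20 for FHL1 (adjusted p 0.391) and 0.27 for RAP1 (adjusted p 0.242). The same holds for ABF1, which binds a few RP promoters (0.33, adjusted p 0.0858), for the activator SFP1 (-0.35, adjusted p 0.102) and for CRF1, a corepressor that competes with Ifh1 for Fhl1 (-0.23, adjusted p 0.641). The kinase gene SCH9 changed by 0.29 (adjusted p 0.228) and the kinase gene YAK1 by -0.22 (adjusted p 0.392).

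Of the 82 cytosolic RP genes with a probe set of their own, 48 were called higher and 0 lower, and their median change was 0.43. The array medians of the list were 11.09, 10.91 and 11.01 (log2) at 20 min, all above 10.53, 10.59 and 10.57 at time 0. Small subunit genes had a median change of 0.55 with 21 of 34 called higher, and large subunit genes a median of 0.40 with 27 of 48. The 41 genes whose probe sets were dimmer in YSS37 at time 0 had a median change of 0.65 with 32 called, and the 41 brighter ones a median of 0.26 with 16 called. With arrays centred on the median these medians were 0.96 and 0.81 with 39 and 41 called, and on the values as deposited 0.79 and 0.64 with 38 and 38, so the gap in calls was seen only with quantile normalization among these 3 settings. In the second round alone 25 members were called and the median was 0.48. The counts also depend on how arrays were brought to one level: 76 members were called on the values as deposited (median 0.75) and 80 with arrays centred on the median (median 0.93), 0 of them lower in either, against a median change of all genes of -0.12 and 0.05 in those fits.

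The spread among RP genes was wide, also between the 2 copies of a protein. RPL22B had 559, 522.2 and 448.1 at 20 min, against 104.8, 133.9 and 126.4 at time 0, a rise of 2.06 ± 0.15 that was the largest of the list. RPL22A had 3669, 3064 and 3523 at 20 min, against 2818, 3179 and 3043 at time 0, with overlapping groups and a change of 0.18 (adjusted p 0.248) that was 0.64 on the values as deposited and 0.81 after median centring. RPL31B rose by 1.36, and RPL31A changed by 0.18 (adjusted p 0.223), which was 0.82 after median centring. In the list RPS26B rose by 1.56 and RPL33B by 1.42. RPL15 ran the other way round: RPL15A had 1525, 1321 and 1404 at 20 min, against 548.2, 548.2 and 543.3 at time 0, a rise of 1.37, while RPL15B changed by -0.39 (adjusted p 0.138), and by -0.32 after median centring. Both copies were measured for 31 proteins. Both were called higher in 15 pairs, 1 copy in 12 and neither in 4, against 27, 4 and 0 on the values as deposited and 30, 1 and 0 after median centring. The median gap between the changes of the copies was 0.37 in each of these fits, and it exceeded 1 in 5 pairs, or in 2 pairs in both other fits. The copies share much of their sequence, so part of a signal may come from the other copy, and the difference between copies was not tested.

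**Figure D2:**
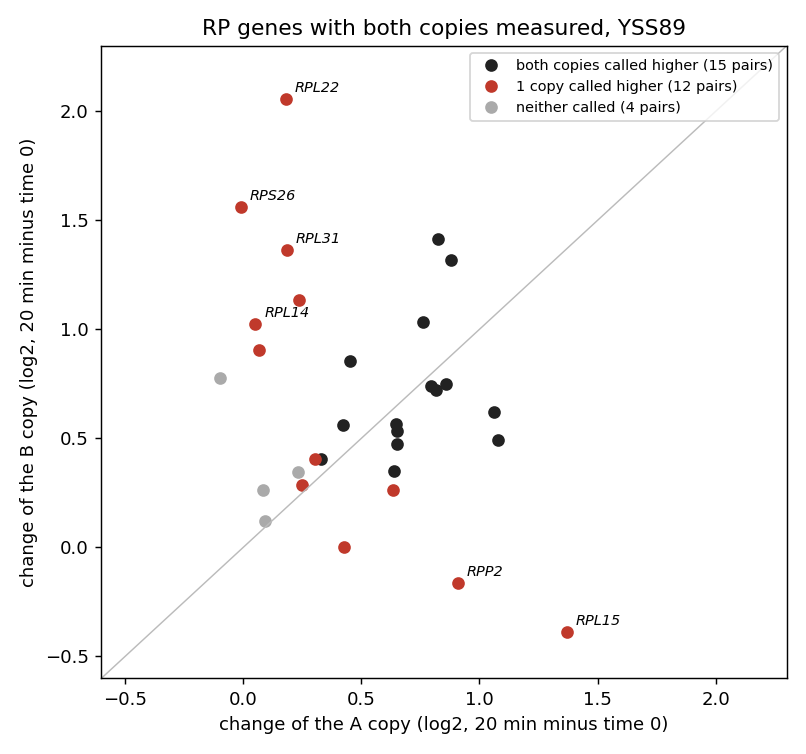
Change at 20 min of the A copy (horizontal) and of the B copy (vertical) of 31 RP gene pairs in YSS89, in log2, with the line of equal change. Values are quantile normalized, black points have both copies called higher, and labelled pairs lie farthest from the line, such as RPL22 (0.18 and 2.06) and RPL15 (1.37 and -0.39).

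Genes of ribosome assembly and tRNA charging had some called rises beside many members that were not called. Of 76 genes of 40S assembly 15 were called higher and 0 lower (median 0.18), among them UTP22 of the early processome (1.14), and of 85 genes of 60S assembly 8 were higher and 0 lower (median 0.24), among them the GTPase gene RIA1 (0.87), which acts on late large subunit particles. Their shares of 19.7% and 9.41% called higher compare with 7.6% over all genes, the second being near it. On the values as deposited the counts were 8 higher and 1 lower and 4 higher and 2 lower. In YSS37 at 30 min far more of them were called higher, 73 of the 40S genes (median 1.03) and 78 of the 60S genes (median 1.15), with 0 lower. The times differ between the strains, and the difference was not tested. The polymerase I subunit gene RPA34 rose by 0.86, and MAF1, the repressor of polymerase III, had a called change of -0.60 with overlapping groups. Of 41 genes of these polymerases 4 were called higher (9.76%) and 2 lower (4.88%), a share higher that is near that of all genes, or 2 and 2 on the values as deposited and 0 and 0 within the second round. Of 40 translation factor genes 6 were called higher (15%) and 1 lower (2.5%), against 7.6% and 10.4% over all genes. Rises were 0.73 for TIF3, which encodes initiation factor eIF4B, and 0.67 for GCD2, a subunit gene of eIF2B.

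The tRNA synthetase genes divided by compartment. Of 22 for the cytosol 6 were called higher and 0 lower (median 0.25), and of 14 for mitochondria 0 were higher and 5 lower (median -0.54). The methionyl-tRNA synthetase gene MES1 had 511.2, 505.1 and 512.6 at 20 min, against 251.3, 269.7 and 250.7 at time 0, a rise of 0.98 (adjusted p 3.84e-06). YHR020W, for prolyl-tRNA synthetase, rose by 1.16 and CDC60, for leucyl-tRNA synthetase, by 0.95. On the mitochondrial side the phenylalanyl gene MSF1 fell by 0.87 and the isoleucyl gene ISM1 by 0.72. This split into compartments was made after the values were seen. Over the whole list of 37 genes 6 were higher (16.2%) and 5 lower (13.5%), against 7.6% and 10.4% over all genes. The counts were 7 and 9 on the values as deposited and 11 and 5 after median centring. With replicates 2 and 3 at time 0 left out 6 cytosolic genes and 0 mitochondrial ones were called, and the medians were 0.35 and -0.29.

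Other mitochondrial genes encoded in the nucleus were lower. Of 78 mitochondrial RP genes 36 were called lower and 0 higher (median -0.53), and 77 had a negative change. MRPL40 of the large subunit had 89.6, 79.1 and 65.2 at 20 min, against 117.5, 171.8 and 201 at time 0, and fell by 1.03. The array medians of the list were 6.47, 6.30 and 6.18 at 20 min, against 6.68, 7.01 and 7.12 at time 0, so the first array at time 0 lay nearest to the 20 min arrays. The median was -0.34 within the second round, with 0 members called. Of 6 mitochondrial chaperone genes 4 fell, with HSP60 (-0.90), SSC1 (-0.88), HSP78 (-0.86) and MDJ1 (-0.71). The 8 genes of the cytosolic chaperonin CCT had a median change of 0.15 and 1 called rise, TCP1 (0.35). The whole list of 40 chaperone genes had 2 called higher and 6 lower (median -0.13), or 0 and 1 with replicates 2 and 3 at time 0 left out (median -0.25) and 4 and 4 after median centring. The shares of 5% higher and 15% lower in the whole chaperone list compare with 7.6% and 10.4% over all genes. Of 34 mitochondrial import genes 7 were lower (20.6%), among them the channel gene TOM40 (-0.68), and 1 was higher (2.94%), TIM21 (0.51). With replicates 2 and 3 at time 0 left out 0 import genes were lower (median -0.16), with TOM40 at -0.54 (adjusted p 0.277), and TIM21 was still called. Of the 4 lower mitochondrial chaperone genes only HSP78 was then called (-0.94), and HSP60 was at -0.60 (adjusted p 0.236), SSC1 at -0.61 (adjusted p 0.235) and MDJ1 at -0.52 (adjusted p 0.196).

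**Figure D3:**
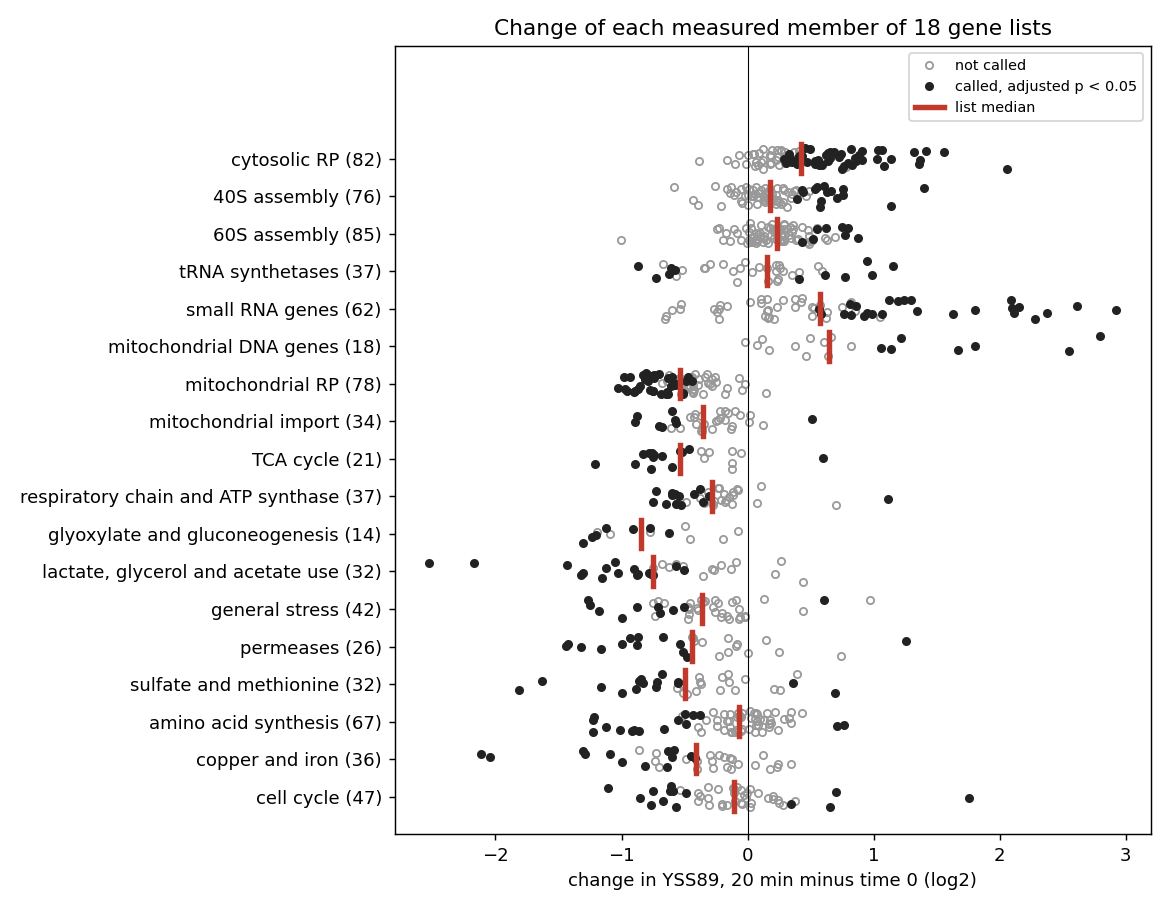
Change at 20 min against time 0 in YSS89 for each measured member of 18 gene lists, in log2, with the number measured in brackets. Filled points were called, open points were not, and red bars mark list medians: that of cytosolic RP genes is 0.43, that of mitochondrial RP genes -0.53 and that of the glyoxylate list -0.84.

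Genes for the carbon sources of the medium had fallen, but not yet to their later level. STL1, which encodes a glycerol importer, had 124.3, 87.4 and 78 at 20 min, against 455.7, 693.9 and 533.6 at time 0, and fell by 2.53 (adjusted p 0.000178). The lactate permease gene JEN1 had 480, 450.1 and 474.5 at 20 min, against 1037, 860.3 and 1271 at time 0, and fell by 1.15, with a further change of -4.96 between 20 and 60 min. Over 0, 20, 30, 40 and 60 min the mean signals of JEN1 were 1056, 468.2, 58.2, 24.9 and 13.9, so the signal kept falling at each later time. The malate synthase gene MLS1 followed the same order, with a change of -1.30 at 20 min (adjusted p 0.0432) and a further -5.20 by 60 min, and the isocitrate lyase gene ICL1 with -1.23 and -3.29. With replicates 2 and 3 at time 0 left out the change at 20 min was -1.16 for JEN1, -0.98 for MLS1 and -0.52 for ICL1, and these genes were then not called. Of 32 genes of lactate, glycerol and acetate use 17 were called lower and 0 higher (median -0.75), and of 14 glyoxylate and gluconeogenesis genes 7 were lower and 0 higher (median -0.84). These counts were 7 and 0 within the second round, with medians of -0.69 and -0.46.

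Regulators of this programme varied at 20 min. CAT8, an activator of gluconeogenesis genes, changed by -0.48 at 20 min (adjusted p 0.0785) and then by -2.36 (adjusted p 2e-08) by 60 min. HAP4, the regulatory subunit of the activator of respiration genes, changed by -0.40 (adjusted p 0.0514) and then by -1.09. Of 34 carbon regulators 2 were called higher and 7 lower at 20 min, and 0 within the second round. The shares with all arrays, 5.88% higher and 20.6% lower, compare with 7.6% and 10.4% over all genes. SIP2, which encodes a subunit of the Snf1 kinase, fell by 1.06, the zinc finger gene YGR067C by 1.39 and the glucose repressor gene MIG1 by 0.55. With replicates 2 and 3 at time 0 left out the changes were -0.79 for SIP2, -0.97 for YGR067C and -0.50 for MIG1, and these genes were then not called. The low signals of HMS2, 11.8, 7.17 and 7.93 at 20 min and 1.56, 2.94 and 0.89 at time 0, gave a rise of 1.72. Its change was 1.78 with replicates 2 and 3 at time 0 left out, where it was not called.

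In the TCA cycle 13 of 21 genes were called lower and 1 higher (median -0.54). The aconitase gene ACO1 had 1398, 1088 and 1563 at 20 min, against 2632, 3083 and 3634 at time 0, and fell by 1.21 (adjusted p 3.84e-06). Of 37 respiratory chain and ATP synthase genes 13 were lower and 1 higher (median -0.28), with COR1 of complex III at -0.75 and SDH4 of complex II at -0.78. The direction of this list turned with the level set for the arrays, since after median centring 3 genes were lower and 6 higher (median 0.13), and 4 TCA genes were then lower and 1 higher (median -0.17). Median centring also gave -0.51 for ACO1 (adjusted p 0.0193), -0.61 for COR1 (adjusted p 0.017) and -0.20 for SDH4 (adjusted p 0.269). The called rises were those of IDP1 (0.59) and COX5B (1.11), whose groups overlapped. Of 18 fatty acid oxidation genes 6 fell, FOX2 of the peroxisomal pathway by 1.27, but with replicates 2 and 3 at time 0 left out 1 was called and FOX2 was at -0.95 (adjusted p 0.106). In the second round alone 3 TCA genes and 0 respiratory chain genes were called, with medians of -0.52 and -0.30.

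A few hexose transporter genes were called, in both directions. HXT7, a high affinity transporter gene, had 1589, 1966 and 1999 at 20 min, against 1064, 1108 and 1068 at time 0, a rise of 0.77 (adjusted p 0.000677), and between 20 and 60 min it fell by 1.92. HXT5, a transporter gene of slow growth, fell by 1.21, and its change was -1.06 with replicates 2 and 3 at time 0 left out, where it was not called. TDH1, a glyceraldehyde-3-phosphate dehydrogenase gene, had 711.5, 939.8 and 1193 at 20 min, against 1040, 187.1 and 155.3 at time 0. Its called rise of 1.57 (adjusted p 0.0296) thus rested on replicates 2 and 3 at time 0, and without them the change was -0.17. Between 20 and 60 min TDH1 fell by 4.04. In all, 2 of 17 hexose transport genes were called higher (11.8%) and 3 lower (17.6%). Of 24 glycolysis and fermentation genes 1 was higher (4.17%) and 4 lower (16.7%), with a median of -0.16. Over all genes the shares were 7.6% and 10.4%, so these counts are small beside what any list may give. The glycolysis counts turned to 6 higher and 0 lower after median centring (median 0.25).

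General stress genes leaned lower, with 9 of 42 called lower and 1 higher (median -0.36). These shares of 21.4% lower and 2.38% higher compare with 10.4% and 7.6% over all genes. The array medians of the list were 7.28, 7.77 and 7.56 at 20 min, against 8.39, 7.37 and 7.40 at time 0, so only the first array at time 0 stood above the 20 min arrays. RGI1, a gene of respiratory growth, had 55.1, 62.5 and 49.2 at 20 min, against 321, 86.8 and 87.3 at time 0, a change of -1.26 that was -2.51 with replicates 2 and 3 at time 0 left out. GAC1, a regulatory subunit gene of the phosphatase that activates glycogen synthase, fell by 1.22. Of 20 glycogen and trehalose genes 4 were called lower (20%) and 1 higher (5%), the higher one being PGM2.

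**Figure D4:**
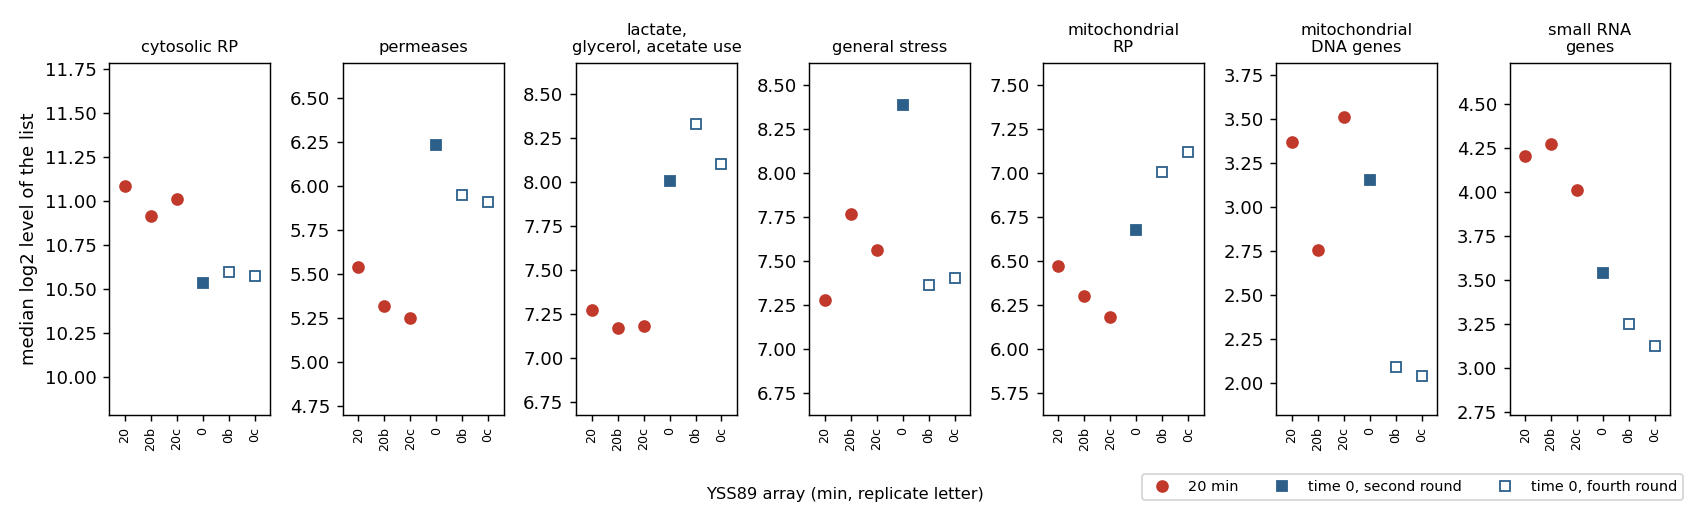
Median log2 level of 7 gene lists on each YSS89 array, with the 20 min arrays at the left and the time 0 arrays at the right of each panel, and the same length of axis in all panels. Filled squares mark the time 0 array of the second round and open squares those of the fourth: for cytosolic RP genes and permeases all time 0 arrays lie on one side of the 20 min arrays, whereas for general stress and mitochondrial DNA genes the time 0 arrays differ among themselves.

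Of 26 permease genes 12 were called lower and 1 higher (median -0.44), or 7 and 0 with replicates 2 and 3 at time 0 left out (median -0.48). AGP1, a broad amino acid permease gene, had 82.2, 77.6 and 74.1 at 20 min, against 188.7, 235.6 and 218.9 at time 0, and fell by 1.44 (adjusted p 2.3e-06). BAP3, for branched-chain amino acids, had 35.4, 33.5 and 35.1 at 20 min, against 96.5, 101.9 and 88.2 at time 0, and fell by 1.43. TAT1, for tyrosine and other amino acids, fell by 1.32. In the list, 10 genes are known targets of the Ssy1 sensor of outside amino acids, a grouping made after the values were seen: 9 fell, the other being DIP5 (-0.42, adjusted p 0.285), and their median change was -0.90. With replicates 2 and 3 at time 0 left out 6 of the 10 were called and the median was -0.94, and in YSS37 at 30 min the median was 0.02, with AGP1 (-0.97, adjusted p 0.000125) and DIP5 (-1.17, adjusted p 0.00211) called lower there as well. The times differ between the strains, and the difference was not tested. The permease genes FCY2, for purines and cytosine (-1.41), and FUI1, for uridine (-1.29), fell as well, and FUI1 was higher by 2.07 at 60 min than at 20 min. OPT2, of the oligopeptide transporter family, rose by 1.26, or 0.78 with replicates 2 and 3 at time 0 left out, where it was not called.

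Genes of sulfur and amino acid metabolism fell in part. Of 32 sulfate and methionine genes 13 were called lower and 2 higher (median -0.50). SAM3, which encodes the S-adenosylmethionine permease, had 32.6, 28.2 and 32.2 at 20 min, against 92.0, 122.9 and 124.3 at time 0, and fell by 1.81, and the homoserine acetyltransferase gene MET2 fell by 1.63. MET4, the activator of the pathway, rose by 0.70 with all arrays. Its change was 0.53 with replicates 2 and 3 at time 0 left out, where it was not called. Of 67 amino acid synthesis genes 14 were lower and 2 higher (median -0.07), or 8 lower and 6 higher after median centring (median 0.03), and the lower ones included LEU2 of leucine synthesis (-1.21), LYS20 of lysine synthesis (-1.12) and GLY1, the threonine aldolase gene (-1.23). Of 11 branched-chain synthesis genes, a subset made after the values were seen, 6 fell (median -0.44), or 1 with replicates 2 and 3 at time 0 left out (median -0.23). Over 0, 20, 30, 40 and 60 min the mean signals of GLY1 were 448.7, 187.9, 294.9, 417.9 and 301.9, and those of SAM1, an S-adenosylmethionine synthetase gene, were 200.6, 99.7, 142.4, 289.8 and 163.2, so both were lowest at 20 min. From the second round alone 4 sulfate and methionine genes and 2 amino acid synthesis genes were called lower.

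**Figure D5:**
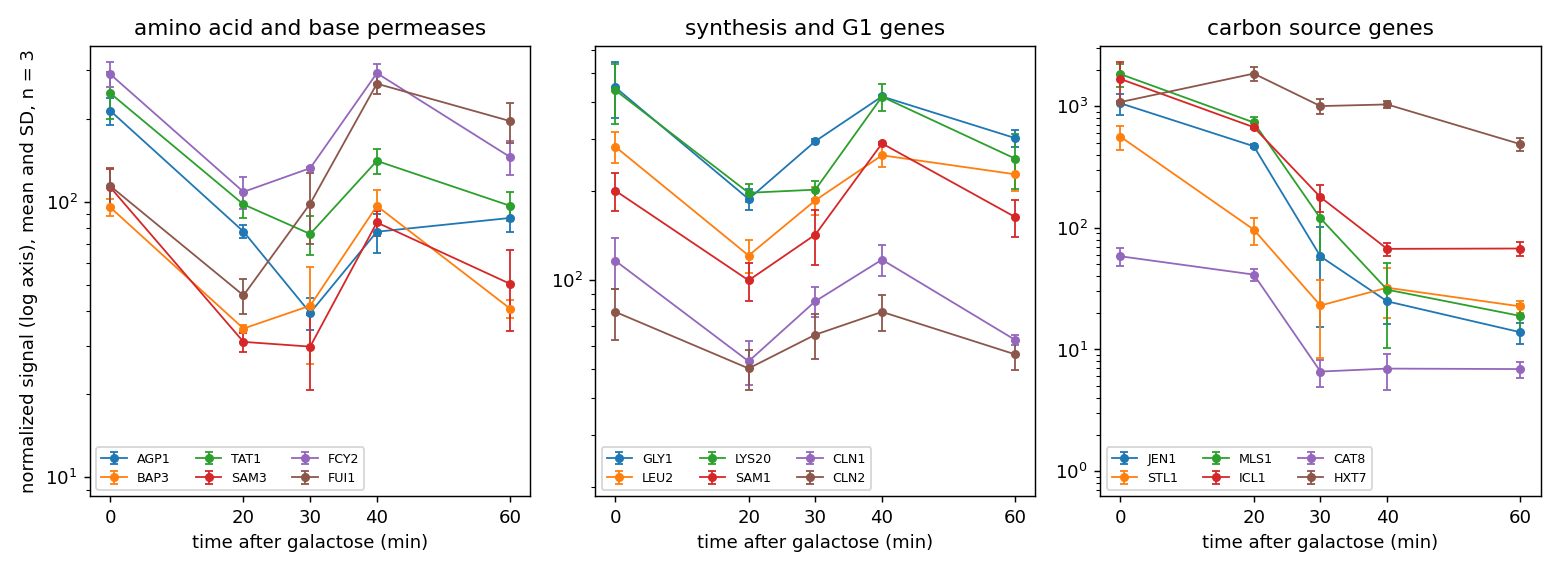
Normalized signal of 18 genes in YSS89 over time, mean and SD of 3 arrays on a log axis. Permease, synthesis and G1 cyclin genes dip at 20 or 30 min and stand higher at 40 min, whereas all 6 genes of the carbon panel are lower at 60 min than at 20 min, and HXT7 is highest at 20 min.

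Copper and iron genes fell, with 13 of 36 called lower and 0 higher (median -0.41). The copper transporter gene CTR1 had 110.2, 75.0 and 54.1 at 20 min, against 271.9, 300.4 and 465.4 at time 0, and fell by 2.12. The reductase gene FRE7 fell by 2.04 and FRE1 by 1.30. The siderophore transporter gene SIT1 had 27.3, 21.7 and 23.0 at 20 min, against 37.2, 93.5 and 63.0 at time 0, a change of -1.29 that was -0.61 (adjusted p 0.251) with replicates 2 and 3 at time 0 left out. The second round alone gave a median of -0.18 and 0 called members.

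With all arrays, cell cycle genes of G1 were called lower and an inhibitor higher. CLN1, a G1 cyclin gene, had 55.6, 43.1 and 60.5 at 20 min, against 90.2, 126.1 and 132.4 at time 0, and fell by 1.10 (adjusted p 0.000136). CLN2 fell by 0.61, PCL1 by 0.67 and CDC6, which loads the replicative helicase, by 0.85. The 15 measured genes of a G1 and S phase subset, made after the values were seen, all had negative changes and 7 were called (median -0.31). With replicates 2 and 3 at time 0 left out the subset median was -0.26. The changes were then -0.77 for CLN1, -0.26 for CLN2, -0.44 for PCL1 and -1.18 for CDC6, and these were then not called. FAR1, the inhibitor of the Cln kinases, had 402.1, 379.5 and 530 at 20 min, against 149.3, 131.4 and 104.9 at time 0, a rise of 1.75 (adjusted p 1.9e-06). In YSS37 at 30 min FAR1 changed by 2.50, CLN1 by 0.69 and CLN2 by 0.81, values set side by side at different times. Over the whole list of 47 genes 4 were called higher and 10 lower, and within the second round 1 higher and 0 lower. The shares of 8.51% higher and 21.3% lower in the whole cell cycle list compare with 7.6% and 10.4% over all genes. Of 4 measured histone genes 2 fell, HTB2 by 0.89.

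Small RNA genes and genes of the mitochondrial DNA were called higher in number, and for some of them the arrays at time 0 disagreed. Of 62 small RNA genes 25 were higher and 0 lower (median 0.57), and of 18 mitochondrial DNA genes 7 and 0 (median 0.65). SNR61, a small nucleolar RNA gene, had 2110, 1981 and 1596 at 20 min, against 2345, 106 and 114.8 at time 0, so its rise of 2.61 rested on replicates 2 and 3, and without them the change was -0.32. ATP6, an ATP synthase gene of the mitochondrial DNA, had 766.7, 1064 and 819.3 at 20 min, against 780.9, 199.5 and 131 at time 0, and its change without these arrays was 0.17 (adjusted p 0.769). SNR75 had 115.9, 125.6 and 96.2 at 20 min, against 26.1, 29.3 and 20.9 at time 0, a rise of 2.09 with all time 0 arrays low, and SNR39 rose by 2.12 in the same manner. Within the second round 5 small RNA genes and 0 mitochondrial DNA genes were called, with medians of 0.49 and 0.14. Labelling primed at the poly(A) tail, as is usual with this kind of kit, reads such RNAs poorly, and the labels do not describe the priming.

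Of 4 measured alpha-cell genes 0 were called and of 7 a-cell genes 1 was called higher, the pheromone gene MFA1, with 283.1, 340.3 and 319.7 at 20 min, against 276.3, 68.7 and 97.4 at time 0, a change of 0.18 without replicates 2 and 3 at time 0. TRP1, the marker beside the tag, changed by -0.39 (adjusted p 0.0493). Over all genes 18% were called, 10.4% of them lower and 7.6% higher. Lists with a smaller share called were the proteasome (2 higher and 1 lower of 34, 8.82%) and antioxidants (0 and 3 of 28, 10.7%, or 4 and 0 after median centring). The same held for the phosphate regulon (0 and 3 of 24, 12.5%), purine and one-carbon genes (0 and 3 of 35, 8.57%) and the pentose phosphate pathway (1 and 0 of 14, 7.14%). Ergosterol synthesis had 0 higher and 5 lower of 26 (19.2%), or 3 and 2 after median centring.

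Other large changes came from genes of no list. SRO9, which encodes an RNA binding protein of translation, had 343, 445.8 and 388.3 at 20 min, against 150.3, 46.1 and 50.7 at time 0, a rise of 2.44 that was 1.37 without replicates 2 and 3 at time 0. RFU1, which encodes an inhibitor of a ubiquitin protease, rose by 1.87. CUP9, the repressor of the peptide transporter gene PTR2, had 113.4, 98.8 and 95.8 at 20 min, against 294, 227.1 and 312.9 at time 0, and fell by 1.42 (adjusted p 3.93e-07), and PTR2 itself fell by 0.87. VHR1, a regulator of biotin genes, fell by 1.74 and ICY1 by 1.79. Fitted one by one, 12.2% of 9275 probe sets were called, and 6.71% of the 2443 that name no gene.

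The state at 20 min was not the final one. Between 20 and 60 min 769 genes were called higher (13.6%) and 644 lower (11.4%), or 25% of all, a comparison that shares the 20 min arrays with the first. In YSS37 at 30 min against time 0, on other arrays, 816 genes were called higher (14.4%) and 703 lower (12.4%), or 26.9%. Of the 430 genes called higher in YSS89 at 20 min 134 were also called higher in YSS37 at 30 min, which is 31.2% of the YSS89 and 16.4% of the YSS37 list, and of the 586 called lower 190 were shared, 32.4% and 27% of the lists. Opposite calls were made for 50 genes that were lower in YSS89 and higher in YSS37, and for 5 the other way round. For RP genes the median change was 0.43 in YSS89 at 20 min and 0.18 in YSS37 at 30 min. The 5 genes whose means over the 8 groups ran most like those of IFH1, by Pearson correlation, were SNR17A (0.99), SNR75 (0.98), SNR46 (0.98), RPB11 (0.98) and YNCE0010W (0.98). They were picked as the highest of all genes, and these means share rounds and chip lots with the strains. By limma RPB11 (adjusted p 0.0511) and YNCE0010W (adjusted p 0.0928) were not called at 20 min, and time 0 signals of YNCE0010W lay near the pseudocount. Time 0 signals of SNR17A were 29.5, 3.33 and 4.96. The change of SNR46 was 2.37, or 0.80 with replicates 2 and 3 at time 0 left out. Whether these genes follow IFH1 was not tested.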

How the data were processed

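Each deposited value is a linear intensity of 1 probe set, and the values show that the authors had scaled all arrays to a common level. Chip lots, where given, and hybridization dates are recorded in the headers of the instrument files. The 4 rounds are the distinct dates and times of hybridization, in order. The summary algorithm is not given in the sources used here. From these intensities log2(intensity + 1.4) was computed, 1.4 being the 10th percentile, and the 24 arrays were quantile normalized without the 60 control probe sets. Printed signals are these values turned back to the linear scale. Of 9335 probe sets 6504 named 1 gene; the brightest for each gene was used, which gave 5656 genes. Gene names are those of the platform annotation, matched to RefSeq (assembly R64) through gene IDs. Changes were fitted with limma 3.58.1 in R 4.3.3 on the means of 8 groups over all 24 arrays, with Benjamini-Hochberg adjustment over all genes, and calls required an adjusted p under 0.05; rises and falls are called genes. The number of arrays limits the precision, and p-values measure the spread between replicate arrays. On simulated data for the 20 min comparison, with 200 of 5656 genes changed, 79% of changes of 1 and 22% of changes of 0.5 (log2) were recovered. The simulated noise was independent between arrays, with no effect of round or chip lot. These shares therefore check the fit only and do not give the recovery or the error in the real comparison, where rounds and groups go together.

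Named genes came from a rule: the 30 largest called rises and falls with arrays that did not overlap, all members of the galactose and regulator lists, up to 6 called members at each end of the other lists, and the 5 profiles most like IFH1; genes named for other reasons are few, and the small subsets of lists were made after values were seen. The members, lists and rule were chosen with earlier results of these data known. Alternatives covered normalization, pseudocount, filter, probe set choice, prior, array weights, round, replicate block and each array left out. No sequences were used.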

Additional observations from a re-analysis of the deposited data

Results flagged for a closer look

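Probe sets that name no gene entered no gene list, and only their share of calls is given above. When all 9275 probe sets were fitted one by one, 135 of the 2443 that name no gene were called higher at 20 min than at time 0 in YSS89 and 29 lower (6.71% called in either direction), against 12.2% of all probe sets. Of those higher, 20 were also called with replicates 2 and 3 at time 0 left out, with arrays that did not overlap. The 5 largest changes among these 20 were 2.56, 2.01, 1.80, 1.51 and 1.35. The first of these had signals of 84.5, 75.0 and 86.9 at 20 min, against 13.4, 12.3 and 12.6 at time 0, and its change in YSS37 at 30 min was 1.97 (adjusted p 1.45e-05 by limma). The next had 35.0, 32.9 and 32.5 at 20 min, against 6.82, 6.54 and 8.48 at time 0. These probe sets are unnamed here, and what they measure was not tested. Single arrays within a group of 3 were not tested as outliers.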

How the results depend on the processing

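Leaving out 1 array at a time gave 654 to 1062 called genes (1016 with all), 17 to 40 lower mitochondrial RP genes, 4 to 9 lower glyoxylate genes and 8 to 13 lower sulfate and methionine genes. The other settings are given in the order of called genes, then members called of cytosolic RP, mitochondrial RP, TCA, lactate, glyoxylate, permease, sulfate, copper and iron, small RNA and mitochondrial DNA genes. With the round as a block these were 274, 28, 1, 6, 7, 0, 7, 5, 1, 6 and 0. Within the second round they were 172, 25, 0, 3, 7, 0, 6, 4, 0, 5 and 0. With replicates 2 and 3 at time 0 left out they were 327, 36, 1, 7, 9, 0, 7, 5, 1, 7 and 0. Within 1 round and 1 chip lot, a setting chosen after seeing the data with 1 array in each group and the spread of the others, they were 71, 8, 0, 1, 1, 0, 2, 1, 0, 4 and 0. Fitting the 2 groups alone called 502 genes, with 28 cytosolic RP, 20 mitochondrial RP and 3 mitochondrial DNA genes. With values as deposited 76 cytosolic RP genes were called, and 80 with arrays centred on the median, which also left 4 TCA and 2 glyoxylate genes. Calls split into 291 higher and 889 lower as deposited and 600 and 420 after median centring, against 430 and 586. Without the dimmest 25% of genes 12 small RNA and 3 mitochondrial DNA genes were called. TDH1 turned to -0.27, -0.35, -0.17 and -0.15 with the round as a block, within the second round, without the 2 time 0 arrays and within 1 round and lot, and SNR61 to -0.25, -0.20, -0.32 and -0.24. PGM2 was -0.019 without the 2 arrays, and within 1 round and lot UCC1 was 0.014 and FHL1 -0.028. The cause was not tested; fewer arrays also raise the SE. The deviations of arrays with the same number correlated at -0.24, -0.15 and -0.005, so no pairing by number was seen. Replicates 2 and 3 at time 0 were hybridized in a round of their own, so these values cannot settle whether same-numbered arrays share a culture. A replicate block gave 1053 called genes and changed no list count by over 1.5 times.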
